A study of Capra hircus with 2 samples.

Results

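The E85 pregranulosa barcodes are droplets of a fetal goat (Capra hircus) ovary library taken at embryonic day 85 that carried transcripts of several supporting-cell genes at once. A barcode was taken when it had 500 or more genes, a summed count of 2 or more for FST, HSD17B1, INHA and SYT6 from at least 2 of these 4 genes, at most 1 molecule of FIGLA and DDX4 together, and none of PECAM1 or KDR. Counts are of unique molecular identifiers (UMIs), which number captured RNA molecules. The rule took 139 of 4028 barcodes with 500 or more genes, or 3.45% (95% exact binomial interval 2.91 to 4.06), and 3889 others at E85 served as the comparison. FST, HSD17B1, INHA and SYT6 chose the barcodes, so their values are a description and support nothing.

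The study profiled dissociated ovaries of female goat fetuses at E85 and E125 by droplet single-cell RNA sequencing with a 3' kit, with 1 library per stage. Both groups are labelled by tissue, sex and stage alone; no treatment, genotype or number of animals is given, and the text of the extraction protocol speaks of testes. Of 12743 barcodes, 4397 came from E85 and 8346 from E125. Variation between animals could not be measured from 1 library at each stage, and no test or p-value is given. Every interval covers counting error only, UMI limits on a count of 0 likewise, and stage and library cannot be told apart.

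Pregranulosa cells are the somatic supporting cells of the fetal ovary. They surround germ cells as germ cell nests break down, enclose single oocytes in primordial follicles, and later give rise to granulosa cells. They exchange signals with the oocyte through KIT ligand, activins and inhibins, Notch and gap junctions, and a basement membrane separates them from the stroma.

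The pregranulosa barcodes were deeper than the rest. They held 1252858 UMIs, with a median of 7308 per barcode (range 2620 to 33224) and a median of 2041 genes, against a median of 3079 UMIs and 1157 genes in the others. Shares of barcodes with a UMI were therefore also taken after each barcode had been thinned at random to 1500 UMIs. Mitochondrial transcripts made up a median of 5.29% (range 0.114 to 14.9) in the pregranulosa barcodes and 4.1% in the others. Of 13 barcode sequences that occur in both libraries, 0 belonged to an E85 pregranulosa barcode. The 130 highest doublet scores at E85 included 10 pregranulosa barcodes.

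Each gate gene was missing from a sizeable part of the set. FST, which codes for the activin-binding protein follistatin, had a UMI in 80 barcodes (57.6%) and up to 40 in a single barcode. HSD17B1, an estrogen-forming enzyme, was seen in 87 (62.6%), INHA, the inhibin alpha subunit, in 98 (70.5%), and SYT6, a synaptotagmin, in 91 (65.5%). The gate sum had a median of 5 and a maximum of 51, with 71 barcodes carrying 2 of the genes, 58 carrying 3 and 10 carrying 4.

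**Figure D1:**
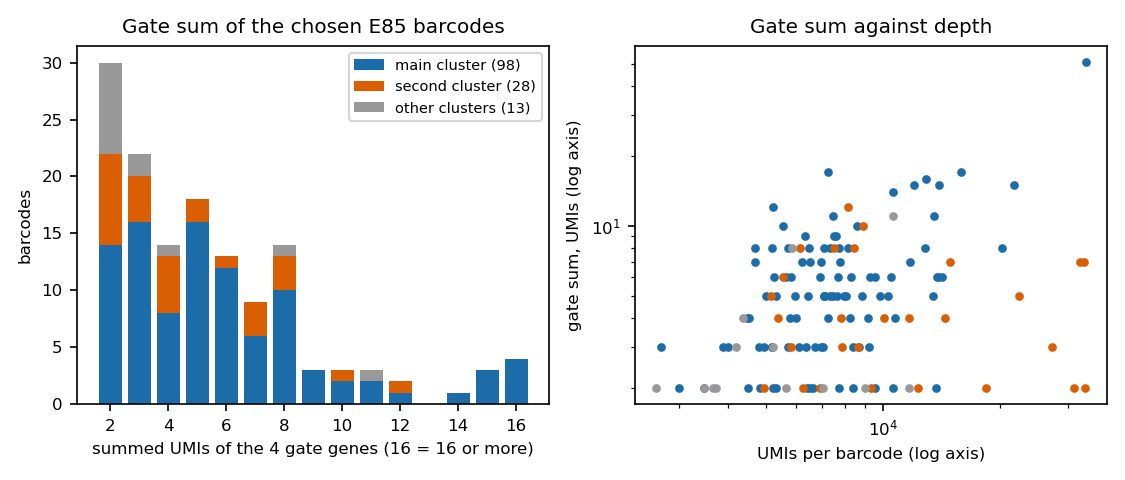
Left, number of pregranulosa barcodes (y axis) at each summed UMI count of FST, HSD17B1, INHA and SYT6 (x axis), stacked by the expression cluster of the barcode, with sums of 16 or more drawn at 16. Right, the same sum (y axis, log) against the UMIs of the barcode (x axis, log), 1 point per barcode in the same colours: 30 barcodes sit at the lowest allowed sum of 2, and the highest sum, 51, lies among the deepest barcodes.

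Levels of TRIB2 and ALPL fell with the gate sum, also across the edge of the rule from exactly 2 gate UMIs to 1. They barely differed between barcodes with exactly 2 and those left out because their gate UMIs came from 1 gene. The level of TRIB2, a supporting-cell gene outside the gate, was 586 counts per 1000000 (CPM, UMIs of a gene in the pooled barcodes, scaled to a pool total of 1000000) in the 109 barcodes with a gate sum of 3 or more and 343 CPM in the 30 with exactly 2. Just outside, 64 barcodes whose 2 or more gate UMIs came from 1 gene had 348 CPM, the 230 with a single gate UMI had 181 CPM, and the 3179 with none had 45.3 CPM. In the same groups, in the same sequence, ALPL was at 404, 241, 239, 96.2 and 14.3 CPM. DCN, a stromal proteoglycan, stood at 133 CPM in barcodes with a sum of 3 or more and at 668 CPM in those with exactly 2. Another 11 barcodes met the gate but carried too many germ cell or any endothelial UMIs and were not taken.

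Gate genes were also read in barcodes chosen by the other 3 alone, as a description. In 111 barcodes picked without FST, FST stood at 193 CPM against 9.32 in the remaining barcodes, a ratio of 20.7 (95% interval 16.7 to 25.6), and 52 of them (46.8%) had a UMI of it. The left-out ratios of SYT6, HSD17B1 and INHA were 11.6 (9.18 to 14.7), 7.63 (6.0 to 9.66) and 6.7 (5.23 to 8.51). At E125, where the same procedure was applied to a library the rule had not used, they were 27.4 for FST, 11.1 for SYT6, 19.3 for HSD17B1 and 12.7 for INHA.

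TRIB2 and ALPL, markers that the rule did not use, were read next. Both were chosen with earlier results of these data known, so their values are a description and no check of the label. TRIB2, which codes for a pseudokinase, was found in 121 of 139 barcodes with 0 to 27 UMIs and a median of 4. Its level was 535 CPM, against 67.8 in the other E85 barcodes, a ratio of 7.88 (7.15 to 8.69). ALPL, tissue-nonspecific alkaline phosphatase, was found in 113 barcodes with 0 to 14 UMIs and a median of 3, and was 11.1-fold higher (9.77 to 12.6; 370 against 33.3 CPM). After thinning, TRIB2 was detected in 54.7% of pregranulosa barcodes (46.0 to 63.1) and 7.16% of the others, and ALPL in 36.0% (28 to 44.5) and 3.16%. Endothelial barcodes, here 88 barcodes taken by endothelial genes with a median of 5314 UMIs, had shares of 14.3% for TRIB2 and 11.9% for ALPL at the same depth. Without thinning, 87.1% of pregranulosa barcodes had a TRIB2 UMI and 81.3% an ALPL UMI, against 13.8% and 6.69% of the others.

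Markers of other cell types were low for most classes. The endothelial genes CDH5, CLDN5 and TIE1 were at 0, besides PECAM1 and KDR, which the rule sets to 0, so 5 of 6 endothelial markers had no UMI. All 3 glial and all 3 erythroid markers with a symbol were at 0 as well. The summed level of 7 germ cell markers was 48.7 CPM, against 1350 in the other barcodes. These 7 include FIGLA and DDX4, which the rule itself limits, so part of that gap is built in. ZP3 alone stood at 38.3 CPM against 1075. The sum of 6 myeloid markers was 13.6 against 297 CPM, and that of 6 stromal markers 425 against 3437. Stromal marker UMIs were seen in 48 of 139 barcodes and ranged from 0 to 6472 CPM over single barcodes. Perivascular markers summed to 386 against 338 CPM and went both ways: MYH11, smooth muscle myosin, was 2.74-fold higher (2.44 to 3.07) with a UMI in 98 barcodes, ACTA2, smooth muscle actin, was 4.95-fold lower, and RGS5 and CSPG4 were at 0. Of the markers of testicular supporting cells, SOX9 had 21 UMIs in 12 barcodes and a ratio of 0.767 (0.469 to 1.19), DMRT1 was at 0 and AMH had 1 UMI, and the list summed to 17.6 CPM against 33.6. FOXL2 has no feature under that symbol and was not analysed here.

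Genes outside the gate were next compared between the pregranulosa barcodes and the other 3889. These ratios describe the chosen barcodes and come from the library that chose them. Of 6403 genes with 200 or more UMIs over both pools, 265 (4.14%) had a ratio of 2 or more and 853 (13.3%) a ratio of 0.5 or less. The median log2 ratio over all measured genes was −0.12.

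Behind ALPL, the gene with the next highest ratio was FSHR, the receptor for follicle-stimulating hormone. It stood at 69.4 CPM against 7.56, a ratio of 9.19 (6.9 to 12.2), and at most 5 UMIs were seen in a barcode. FSHR was found in 52 barcodes (37.4%). Thinned, it was detected in 13.7% of pregranulosa barcodes (8.43 to 20.5), 0.931% of the others and 0 of 84 endothelial barcodes, which allows a share with a UMI of up to 3.57% (3 counts of the total). The next genes in rank were VSTM2L at 8.88-fold, ERP27, an endoplasmic reticulum protein of the disulfide isomerase family, at 8.58-fold, SLC35G1, a membrane carrier, at 8.5-fold, and INSRR, the insulin receptor-related receptor, at 8.09-fold. Below TRIB2 came CADM2, an adhesion molecule, at 7.76-fold, ASB9 at 7.68-fold and TFF2, a secreted trefoil peptide, at 6.97-fold.

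SERPINA5, the protein C inhibitor, was found in 123 barcodes (88.5%), the largest share among these 25 genes, at 544 CPM against 92.0 and a ratio of 5.91 (5.39 to 6.48). ITGA6, a laminin receptor subunit, was 5.52-fold higher (4.62 to 6.57), SMOC2, a calcium-binding protein of basement membranes, 4.88-fold (4.25 to 5.6), and EMB, an immunoglobulin-family membrane protein, 6.47-fold (5.2 to 8.02). PCLO, a scaffold protein of presynaptic terminals, was 5.0-fold higher and was found in 61 barcodes (43.9%), with 0 to 34 UMIs. SYCN, a secretory granule protein, was 4.83-fold higher and was found in 105 barcodes (75.5%), with 0 to 58 UMIs. In the second of the expression clusters described further on, PCLO stood at 479 CPM and SYCN at 921 CPM, against 91.0 and 254 CPM in the main one. The remaining genes of the 25, PPFIA2, CRISP2, WIPF3, PSTPIP2, TLL2, PCDH7, SOLD1, RRAD and RALGAPA2, had ratios between 4.78 and 6.91. All 25 intervals lay above 2. Some of these genes were as high in 26 E85 barcodes taken by surface epithelium genes. SYCN stood at 498 CPM there, against 449 CPM in the pregranulosa barcodes. PCLO was at 185 against 202 CPM, RALGAPA2 at 58.0 against 57.5 and TLL2 at 63.3 against 69.4. SERPINA5 was at 337 against 544 CPM. ALPL (13.2 CPM), FSHR (2.64 CPM) and TRIB2 (60.6 CPM) were far below their 370, 69.4 and 535 CPM in the pregranulosa barcodes.

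**Figure D2:**
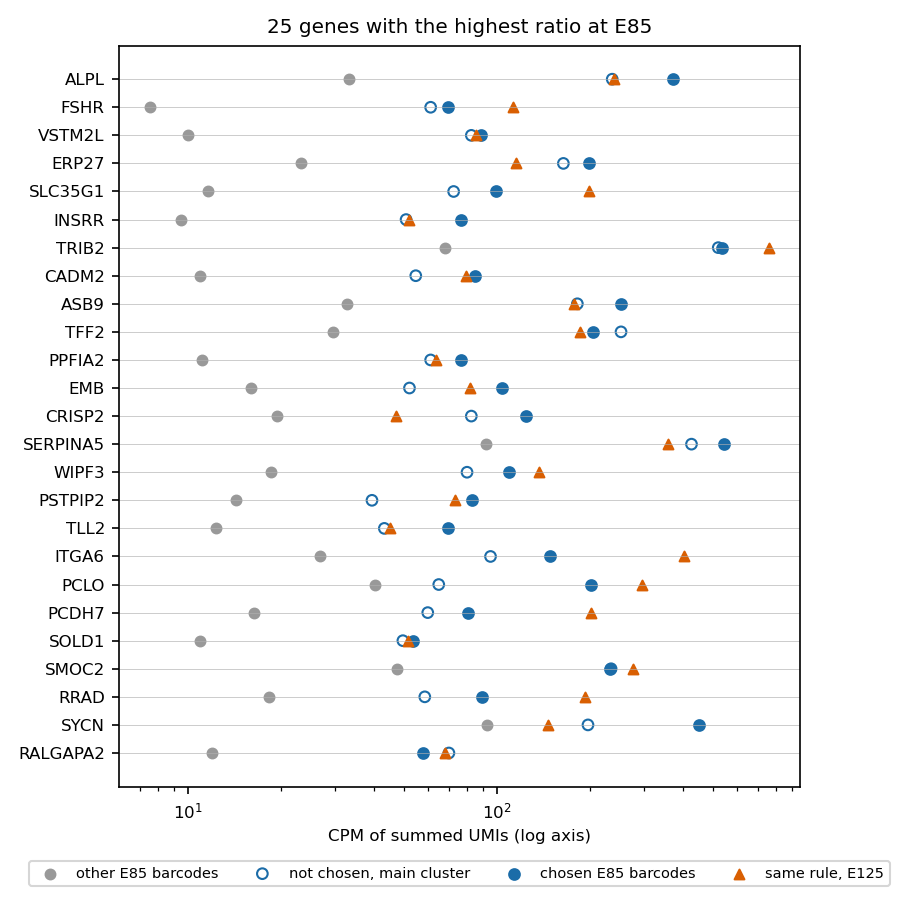
CPM of summed UMIs (x axis, log) of the 25 genes with the highest ratios at E85 (y axis), in the pregranulosa barcodes (filled blue), barcodes of the same main cluster that the rule did not take (open blue), the other E85 barcodes (grey) and barcodes taken by the same rule at E125 (triangles). In each of the 25 genes the filled blue point lies at least 4.78-fold to the right of the grey one, and the E125 triangle lies to the right of the grey one too.

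The lowest ratios belonged to genes of other cell types of the ovary. ZP3, a zona pellucida glycoprotein made by oocytes, stood at 38.3 CPM against 1075, a ratio of 0.0357, and STK31, TDRD15 and FOXR1, which are germ cell genes, were lower by 31.2-fold, at least 27.0-fold (0 UMIs) and 23.5-fold. AIF1, CORO1A, LAPTM5 and C1QA, genes of macrophages and other leukocytes, were 27.1-, 27.0-, 25.1- and 22.8-fold lower. NEB and NPY completed the 10, at 29.9- and 22.6-fold lower. These ratios moved with the comparison. Against E85 barcodes without the germ cell, endothelial and myeloid ones, the ratio of C1QA was 1.19, that of FOXR1 0.588, that of ZP3 0.361 and that of STK31 0.258. As a mean over barcodes, ZP3 had a ratio of 0.245 and STK31 of 0.132. At 1500 UMIs per barcode ZP3 had a ratio of 0.16, while the other 9 genes were left with 0 to 2 UMIs, which were set to 3, and NEB, TDRD15, FOXR1 and STK31 then had ratios of 0.638, 0.671, 0.797 and 0.409. The exclusion of FIGLA and DDX4 in the rule bears on the germ cell genes among these.

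Signals that supporting cells send or receive were described by gene lists. The list of 20 supporting-cell markers outside the gate had 9 measured genes, of which 6 were at least 2-fold higher and 1 lower, with a median log2 ratio of 1.08. That median was 0.01 in the pregranulosa barcodes of the main expression cluster alone, 0.48 with INHA left out of the gate and 0.52 with 3 or more gate genes required, and ranged up to 1.61 as a mean over barcodes. KITLG, which codes for KIT ligand, was 2.33-fold higher (1.97 to 2.73), seen in 78 barcodes and never above 8 UMIs. Thinned, KITLG was detected in 15.1% of pregranulosa barcodes, 5.1% of the others and 40.5% of endothelial ones. In the E85 barcodes taken by surface epithelium genes KITLG stood at 158 CPM. It was at 173 CPM in the pregranulosa barcodes of the main expression cluster and 96.4 CPM in those of the second. GJA1, the gap junction protein connexin 43, was 3.69-fold higher (2.96 to 4.55) and IRX5, a homeobox factor, 2.04-fold (1.42 to 2.87). IRX5 stood at 15.0 CPM in the pregranulosa barcodes of the main expression cluster and 69.6 CPM in those of the second. The other E85 barcodes had 15.2 CPM of IRX5, and those taken by surface epithelium genes 134 CPM. NR0B1, the nuclear receptor DAX1, was 2.62-fold lower. KRT8 (0.979-fold) and CDKN1B (1.02-fold) differed by less than 2-fold. RSPO1, WNT4, LGR5 and RUNX1, supporting-cell genes in other mammals, had 0 or 1 UMI in the 139 barcodes, too few to give a ratio.

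In the activin, inhibin and TGF-beta list, 1 of 14 measured genes was higher and 5 were lower, with a median log2 ratio of −0.61. INHBB, the beta B subunit of activin and inhibin, stood at 55.9 CPM against 15.2, a ratio of 3.68 (2.78 to 4.82), with a UMI in 43 barcodes. In the 26 E85 barcodes taken by surface epithelium genes INHBB stood at 87.0 CPM. INHBA, the beta A subunit, had a ratio of 0.48 (0.305 to 0.721). The ligands TGFB2 and TGFB3 were 4.56- and 2.04-fold lower, TGFB1 had 0 UMIs against 225 and was at least 5.82-fold lower, and the receptor ACVR1 was 2.19-fold lower. The intracellular mediators SMAD2 (1.92-fold) and SMAD4 (1.43-fold) stayed under 2-fold. In the BMP list, 0 of 9 measured genes were higher and only ID3, a target of BMP signals, was lower, by 5.25-fold.

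Further ligand and receptor lists held few genes past 2-fold. The RSPO and WNT list had 1 higher gene, the co-receptor LRP5 (2.35-fold, 1.91 to 2.86), and 5 lower genes of 15, among them the inhibitors WIF1, FRZB and APCDD1 at 9.34-, 5.78- and 7.26-fold lower. AXIN2, a target of WNT signalling, had a ratio of 1.07 (0.705 to 1.56). In the Notch list 1 of 7 measured genes was higher, the target HEY2 at 3.73-fold (2.88 to 4.79), and 1 was lower, the ligand JAG1 at 3.69-fold. Of 4 measured hedgehog genes, the receptor PTCH1 was 2.22-fold higher (1.74 to 2.8) and the transcription factors GLI2 and GLI3 were 5.56- and 2.73-fold lower. The list of KIT ligand, growth factor and PI3K genes had 4 higher and 4 lower of 15. PDGFA, a platelet-derived growth factor chain, stood at 419 CPM against 93.7 (4.47-fold, 4.04 to 4.94), IGFBP2 was 2.56-fold and PIK3R1 2.06-fold higher, while IGF1, IGF2, FGFR1 and the receptor KIT were lower by 2.35- to 9.0-fold.

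Enzymes of steroid synthesis were sparse. CYP19A1, aromatase, had 69 UMIs in 41 pregranulosa barcodes and 50 in all 3889 others, a total below the 200 needed for a measured gene, and a ratio of 17.8 (12.2 to 26.1). Thinned, CYP19A1 was detected in 6.47% of pregranulosa barcodes and 0.395% of the others, and in 0 of the 84 endothelial barcodes. CYP11A1 had 17 UMIs and STAR 17. Among retinoid genes of the same list, CYP26B1, which degrades retinoic acid, and RARB, a retinoic acid receptor, had 0 UMIs against 391 and 329, at least 10.1- and 8.51-fold lower. CRABP1, a retinoic acid binding protein, had 1 UMI against 507. Of 11 measured genes of that list, 0 were higher and 4 lower, with a median log2 ratio of 0.05.

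Among gonadal transcription factors, 1 of 11 measured genes was higher and 5 were lower (median log2 ratio −0.9). WT1, a factor shared by several gonadal somatic lineages, was at 270 CPM against 284, a ratio of 0.95 (0.848 to 1.06). TCF21 and NR2F2, both known from stromal lineages, were 7.88- and 2.65-fold lower, and CBX2 was 3.52-fold lower. GATA4, below the limit for a measured gene, had 33 UMIs against 138 and a ratio of 3.08 (2.04 to 4.53).

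Of 11 measured genes for epithelial junctions and keratins, 4 were higher, 7 within 2-fold and 0 lower, with a median log2 ratio of 0.58. The 4 were GJA1, DSP, the desmosomal protein desmoplakin (3.2-fold, 2.72 to 3.76), LLGL2, a polarity protein (3.41-fold, 2.48 to 4.62), and KRT19 (2.12-fold, 1.85 to 2.42). In the E85 barcodes taken by surface epithelium genes DSP stood at 324 CPM. It was at 112 CPM in the pregranulosa barcodes of the main expression cluster and 265 CPM in those of the second. GJA1 went the other way, at 42.2 CPM in the surface epithelium barcodes against 111 and 61.6 CPM. Of 19 measured stromal matrix genes, 0 were higher and 15 lower, with a median log2 ratio of −2.85. COL1A1, COL1A2 and DCN were 13.6-, 11.6- and 7.2-fold lower. SPARC (1.27-fold) and VCAN (0.871-fold) were close to the level of the other barcodes. In the basement membrane list, ITGA6 and SMOC2 were higher and LAMA2, COL4A1 and COL4A2 were 2.11- to 2.45-fold lower, of 15 measured genes. NTN1, the guidance cue netrin 1, was 4.2-fold higher (3.2 to 5.47) and EFNB2, ephrin B2, 2.5-fold (2.17 to 2.87).

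**Figure D3:**
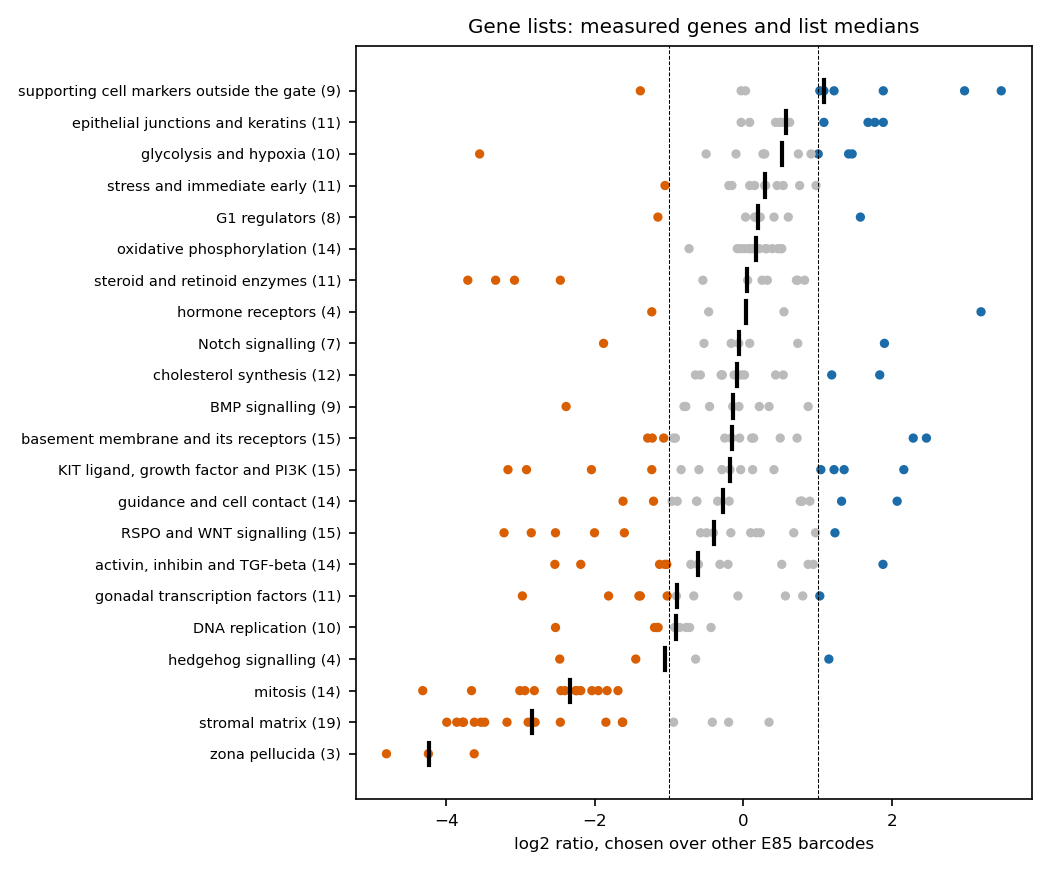
Log2 ratio of CPM, pregranulosa over other E85 barcodes (x axis), for the measured genes of 22 lists (y axis, number of measured genes in brackets), with blue points at least 2-fold higher, orange points at least 2-fold lower and grey points between; black bars are list medians and dashed lines mark 2-fold. The supporting-cell list has the highest median (1.08), and the mitosis, stromal matrix and zona pellucida lists have medians of −2.33, −2.85 and −4.24. The zona pellucida median, of 3 genes, was −0.46 against barcodes without germ cell, endothelial and myeloid ones and −0.97 at 1500 UMIs per barcode.

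All 14 measured mitosis genes were at least 2-fold lower, with a median log2 ratio of −2.33. The median was −1.63 as a mean over barcodes and −0.7 at 1500 UMIs per barcode, where 11 of the 14 genes had 3 or fewer UMIs and were set to 3. AURKA, a mitotic kinase, had 5 UMIs against 1287, a ratio of 0.0501, and CENPF, a kinetochore protein, was 12.7-fold lower. TOP2A, topoisomerase II alpha, was 4.79-fold lower, and of its 30 UMIs 29 lay in 4 barcodes outside the clusters that held most of the set. At 1500 UMIs per barcode, 3 of 139 pregranulosa barcodes (2.16%, 0.447 to 6.18) had 2 or more mitosis UMIs, against 6.71% (5.91 to 7.59) of 3546 others. Without thinning the shares were 13.7% and 12.9%. Endothelial barcodes gave 2.38% (0.29 to 8.34) after thinning. In the DNA replication list 4 of 10 measured genes were lower and 0 higher, and 5.04% of pregranulosa barcodes had 2 or more of its UMIs after thinning, against 12.9% of the others, while without thinning the shares were 52.5% and 30.7%. CDKN1A, the cell cycle inhibitor p21, was 2.98-fold higher (2.53 to 3.49), and CDKN1C, p57, 1.52-fold.

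Metabolic genes differed in a few members of each list. MSMO1, a sterol demethylating enzyme, was found in 130 barcodes with 0 to 38 UMIs and was 3.57-fold higher (3.32 to 3.83). In the E85 barcodes taken by surface epithelium genes MSMO1 stood at 796 CPM. It was at 642 CPM in the pregranulosa barcodes of the main expression cluster and 1245 CPM in those of the second. Of 12 measured cholesterol synthesis genes, 10 lay within 2-fold. In the glycolysis and hypoxia list, ALDOA (2.67-fold), VEGFA (2.76-fold) and HK1 (2.01-fold) were higher and ADM, adrenomedullin, was 11.7-fold lower, of 10 measured genes. All 14 measured oxidative phosphorylation genes lay within 2-fold.

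The nuclear gene with the highest variance over mean at equal depth was GSTM3, a glutathione S-transferase, named after its values had been seen. Its value was 4.92 at a mean of 17.7 UMIs per barcode. DCN had 3.88 at a mean of 0.46, so GSTM3 was not the most variable gene relative to its level. Without thinning, the 5 barcodes with the most UMIs held 10.1% of GSTM3 UMIs and 43.8% of DCN UMIs. All 139 barcodes had GSTM3 UMIs, with a median of 90 and a maximum of 393, and its level was 4.37-fold that of the other barcodes. It reached 13413 CPM in the cluster with the most pregranulosa barcodes and 6462 CPM in the second cluster, against 2511 CPM in the other E85 barcodes.

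To ask how genes outside the rule would place these barcodes, all 4028 E85 barcodes were clustered without the gate genes and without the 4 genes used for exclusion. The main cluster, of 246 barcodes, held 98 of the 139 (70.5%, 62.2 to 77.9), and a second cluster of 165 held 28 (20.1%, 13.8 to 27.8). The other 13 were spread over 6 clusters, and 11 of 19 clusters held none. The leading genes of the main cluster were CYP19A1, FST, SYT6, ATP4B, BMP3, PADI1, VSTM2L, PAPSS2, ALPL and TRIB2. FST and SYT6 are gate genes, and 98 of the 246 barcodes were chosen by the gate. Their place among the leading genes is therefore partly built in and supports nothing. Those of the second were SOST, PCLO, ASIC2, COL8A1, SYT10, CDKN1A, RDH10, RYR2, SYCN and MREG. None of these leading genes is in a marker class used here, so this cluster is called by number. Of 26 E85 barcodes taken by surface epithelium genes, 13 fell in it and 0 in the main cluster. Its 28 barcodes are called pregranulosa by the rule alone.

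**Figure D4:**
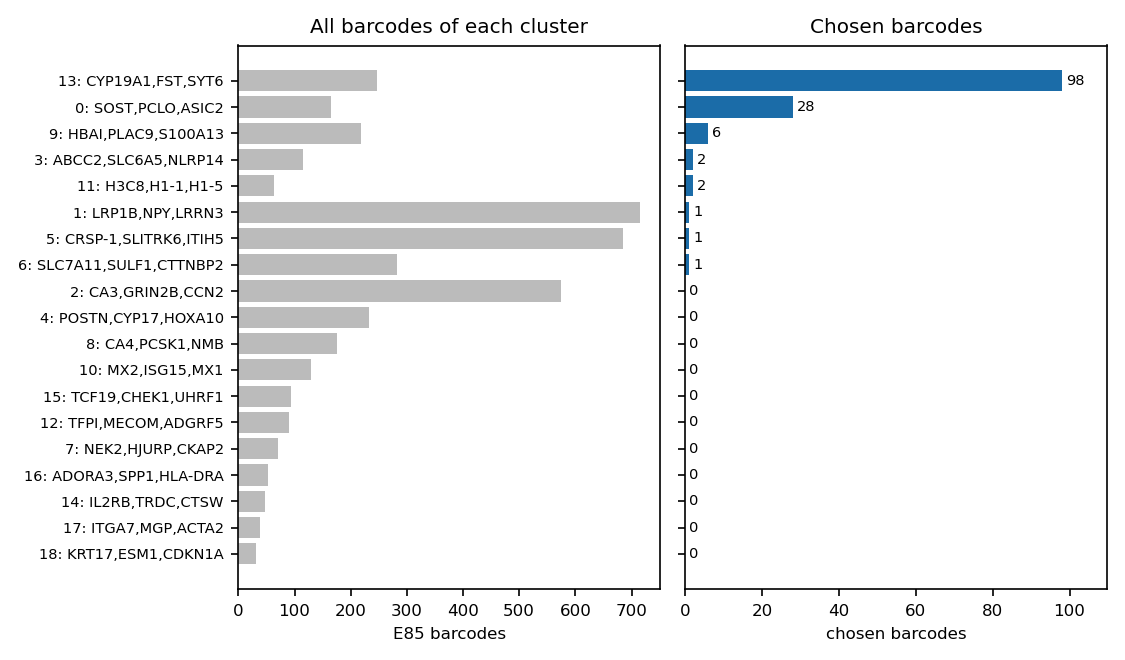
Number of E85 barcodes (left, x axis) and of pregranulosa barcodes (right, x axis) in each of 19 expression clusters (y axis, cluster number and its 3 leading genes). The cluster led by CYP19A1, FST and SYT6 holds 98 pregranulosa barcodes and the cluster led by SOST, PCLO and ASIC2 holds 28. FST and SYT6 are gate genes, so their place as leading genes is partly built in.

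The main cluster also held 148 barcodes that the rule did not take. These had a median of 4677 UMIs, against 7180 in its 98 pregranulosa barcodes, and TRIB2 stood at 520 CPM in them and ALPL at 236 CPM. The barcodes taken were the deeper ones of this cluster, and the comparison pool of other barcodes contains the rest. With that cluster left out of the comparison pool, 281 genes were higher and 883 lower.

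The 13 pregranulosa barcodes outside both clusters carried markers of other lineages. Stromal markers summed to 1986 CPM in them, germ cell markers to 584 CPM and myeloid markers to 208 CPM, against 112, 13.7 and 0 CPM in the pregranulosa barcodes of the main cluster. In this group 11 of 13 had a stromal UMI, 7 a germ cell UMI and 6 a myeloid UMI, and 2 had doublet scores among the highest. TRIB2 stood at 169 CPM and ALPL at 156 CPM there. Their part in the results was not tested beyond leaving them out, which gave 288 higher and 885 lower genes.

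The pregranulosa barcodes of the main and second clusters differed in many genes, and since the clusters were built from these genes the comparison is a description. Of 2368 genes with 60 or more UMIs over both groups, 82 (3.46%) had a ratio of 2 or more, main over second, and 155 (6.55%) a ratio of 0.5 or less. CYP19A1 was seen in 40 of 98 barcodes of the main cluster (68 UMIs) and in 0 of 28 of the second, which allows a share with a UMI of up to 10.7% (3 counts of the total), and its level was at least 10.5-fold higher. STC1, the secreted hormone stanniocalcin 1, had 114 UMIs in 37 barcodes of the main cluster and 1 in the second, and ATP4B, an ion pump subunit, had 90 and 3. TRIB2 was at 729 CPM in the main cluster and 193 CPM in the second (3.78-fold, 2.96 to 4.9), RELN, the extracellular protein reelin, was 4.13-fold higher and RSPO2, a WNT agonist, 3.78-fold. Among the gate genes FST stood at 308 CPM in the main and 21.4 CPM in the second cluster, HSD17B1 at 145 and 77.7, SYT6 at 209 and 80.3, and INHA at 115 and 171. FST was seen in 69 of 98 barcodes of the main cluster and 3 of 28 of the second.

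Genes higher in the second cluster included an epithelial and a retinoid gene. RDH10, which makes retinaldehyde from retinol, had 122 UMIs in 14 of 28 barcodes and 2 UMIs in the 98 of the main cluster, an 87.4-fold difference with the 2 UMIs set to 3 (95% interval of the counts themselves 35.5 to 1095). KRT19 stood at 619 CPM in 20 of 28 barcodes against 22.4 CPM in the main cluster (27.6-fold), KRT8 was 6.79-fold and the gonadal factor EMX2 6.7-fold higher. HEY2, with UMIs in 20 of 28 barcodes, was 22.7-fold higher in the second cluster, and the Notch targets HES1 and HEY1 were 17.2- and 17.9-fold higher there. PTCH1, IGFBP2 and CDKN1A were 3.26-, 4.6- and 6.1-fold higher in the second cluster. In the main cluster alone KRT19 (22.4 CPM) and HEY2 (8.72 CPM) lay below the other E85 barcodes (95.8 and 17.5 CPM). IRX5 (15.0 CPM) lay at the level of the other E85 barcodes (15.2 CPM). PTCH1 (41.1 CPM), IGFBP2 (89.7 CPM) and CDKN1A (61.1 CPM) lay less than 2-fold above the other E85 barcodes. The ratios of all these genes in the whole set therefore rested on the second cluster. CXCL10 (37.8-fold) and ISG15 (7.79-fold) came mainly from single barcodes, which held 81.5% and 43.7% of the UMIs.

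Other genes differed by less than 2-fold between the clusters. FSHR stood at 71.0 CPM in the main and 75.0 CPM in the second cluster (0.947-fold, 0.593 to 1.55) and SERPINA5 at 575 and 570 CPM (1.01-fold, 0.854 to 1.19). INHBB was at 54.8 and 67.0 CPM (0.819-fold, 0.49 to 1.4). PDGFA (1.35-fold, 1.11 to 1.66), ITGA6 (1.56-fold, 1.1 to 2.26), GJA1 (1.8-fold, 1.13 to 2.99) and KITLG (1.8-fold, 1.24 to 2.67) were higher in the main cluster. WT1 was at 208 and 415 CPM and was 1.99-fold higher in the second (1.59 to 2.5).

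The barcodes of the same clusters that the rule had not taken were read as well. They too had shaped the clusters, so a shared direction was largely built in and gives no independent support. Of the 30 genes with the highest and lowest ratios between the clusters, 29 had the same direction there, 15 of 15 for the main cluster and 14 of 15 for the second, with ISG15 the exception at a ratio of 1.01. DCN, 12.4-fold higher in the pregranulosa barcodes of the second cluster, stood at 235 and 348 CPM in the barcodes not taken.

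**Figure D5:**
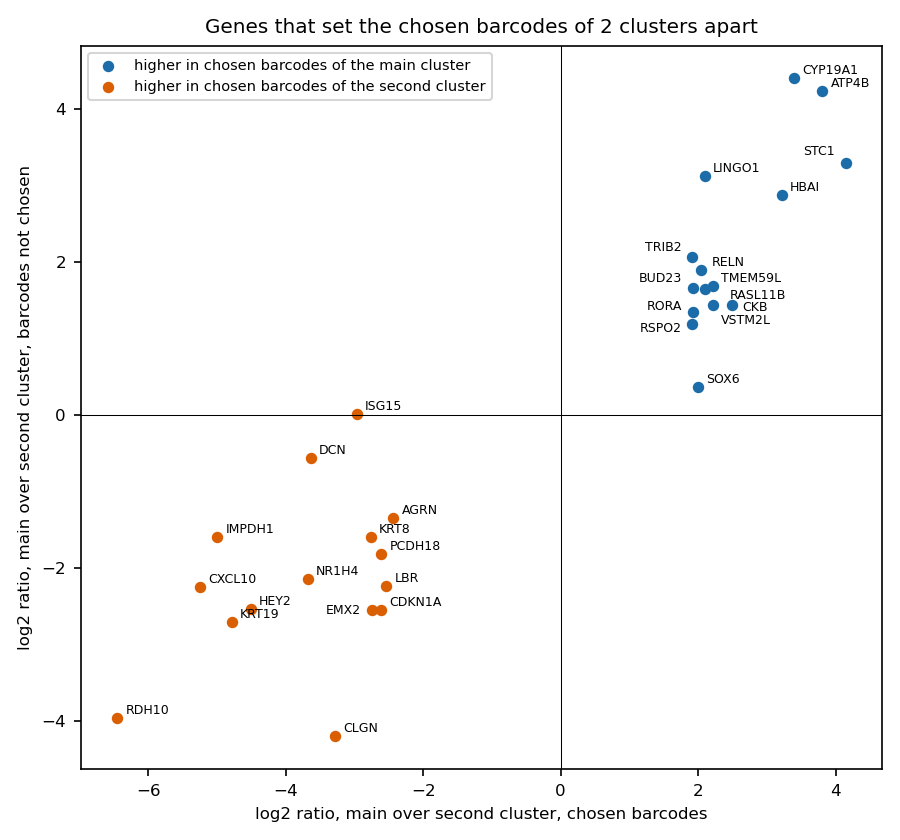
Log2 ratio of CPM, main over second cluster, in pregranulosa barcodes (x axis) and in barcodes of the same clusters that the rule did not take (y axis), for the 15 genes highest in each cluster among pregranulosa barcodes. All 30 points but ISG15 keep their side of 0; sums of 3 UMIs or fewer, such as the 0 of CYP19A1 in the second cluster, are drawn as 3.

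Depth, stromal RNA and surface epithelium genes moved with the second cluster. Its pregranulosa barcodes had a median of 8750 UMIs and 6.85% mitochondrial transcripts, against 7180 UMIs and 5.04% in the main cluster. Stromal markers summed to 774 CPM, with a UMI in 14 of 28 barcodes, against 112 CPM and 23 of 98. Surface epithelium markers summed to 67.0 CPM against 3.74, with UPK1B and LRRN4 at 0 in the whole set, and 13 of 26 E85 barcodes taken by surface epithelium genes fell in the second cluster and 0 in the main. In those 26 barcodes KRT19 stood at 680 CPM and RDH10 at 335 CPM. Doublet scores were among the highest in 3 of 28 barcodes of the second cluster and 5 of 98 of the main, and without them RDH10 and KRT19 were 89.0- and 25.2-fold higher in the second. The part of these features in the difference was not tested. The border between the clusters moved with the settings: after the highest doublet scores had been left out before clustering, 12 of 25 remaining barcodes of the second cluster fell in the main one, and at a clustering resolution of 0.5 so did 12 of 28.

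The same rule was then applied to the E125 library, which had played no part in choosing the E85 barcodes. It took 572 of 7645 barcodes with 500 or more genes, or 7.48% (6.9 to 8.09), with a median of 8583 UMIs. Against the other E125 barcodes, 374 (3.97%) of 9414 measured genes had a ratio of 2 or more and 2362 (25.1%) one of 0.5 or less, and the median log2 ratio was −0.36. All 25 genes highest at E85 were at least 2-fold higher at E125 too, with ratios of 2.94 to 20.4, and all 10 lowest were at least 2-fold lower. FSHR had a ratio of 20.4 at E125, with 113 against 5.54 CPM, and TRIB2 and ALPL had ratios of 8.01 and 7.27. Of 264 genes higher at E85 and measured at E125, 150 were higher there (56.8%), which is 70.1% of the 214 higher genes at E125 that were measured at E85. Of 837 lower genes, 672 were lower at E125 (80.3%).

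Some lists read differently in the later library. INHBB had a ratio of 3.68 at E85 and 8.49 at E125, NTN1 of 4.2 and 7.8, and KITLG of 2.33 and 3.46. CDH2, N-cadherin, had 1.35 at E85 and 4.5 at E125. HEY2 had 3.73 at E85 and 1.02 at E125, PTCH1 2.22 and 0.938, and LLGL2 3.41 and 1.28. Each ratio is against the other barcodes of its own stage, so a change may lie in either pool. For HEY2, the E125 barcodes of the rule stood at 43.7 CPM, and by the ratio of 1.02 the other E125 barcodes were near that level. The other E85 barcodes stood lower, at 17.5 CPM. KRT19 had 2.12 at E85 and 0.149 at E125. AMH, the anti-Müllerian hormone gene, had 1 UMI in the E85 pregranulosa barcodes, and its ratio at E125 was 55.7. Mitosis genes were at least 2-fold lower in 14 of 14 measured genes at E85 and in 7 of 16 at E125, and 5.83% of E125 barcodes of the rule had 2 or more mitosis UMIs after thinning. None of these differences between stages could be tested with 1 library each.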

How the data were processed

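Droplet single-cell RNA sequencing was deposited as UMI counts per gene and barcode, whole numbers that the authors had not normalized, per the file headers. The submitters' processing notes name Cell Ranger 3.1 and the file headers 6.0.0. The genome build was not given in the sources used here, nor was the annotation. Of 27271 features, 10655 carry no symbol and stayed under their identifier. No sequence is printed.

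Counts of each pool of barcodes were summed and scaled to CPM. Ratios carry exact conditional and shares exact binomial (Clopper-Pearson) 95% intervals. A gene was measured with 200 or more UMIs over both pools and counted at 2-fold; sums of 3 UMIs or fewer were set to 3, and a fold from 0 UMIs is given as at least. CPM compares a gene between pools; it was not used to rank genes against each other. The text names the genes with the 25 highest and 10 lowest ratios of those with a symbol and 50 CPM in the higher pool, leaving out gate, exclusion and mitochondrial genes, plus examples of lists. The 15 genes highest in each cluster were named after their values were seen. Members, lists and markers were chosen with earlier results of these data known.

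Clusters came from Leiden at resolution 1 on 2000 variable genes, 30 principal components and 15 neighbours (scanpy 1.11.5). Scrublet's own threshold called only 2 barcodes at E85 and was not used. Whether it had worked was not tested. Doublets were kept, and leaving out the highest scores, at an assumed rate of 0.8% per 1000 barcodes, was an alternative. Endothelial, stromal, germ cell, myeloid and surface epithelium barcodes were taken by marker counts. Other tools were Python 3.11.15, scipy 1.17.1, R 4.3.3, and edgeR 4.0.16 and DESeq2 1.42.0 for alternative scaling factors only. The ratio calculation was tested on simulated data. A few genes of the lists are not reported here by name.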

Additional observations from a re-analysis of the deposited data

Results flagged for a closer look

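KRT19 went opposite ways at the 2 stages. Barcodes taken by the rule had 2.12 times the level of the other barcodes at E85 and 0.149 times at E125. At E85 the higher level lay in the 28 barcodes of the second cluster (619 CPM), while the 98 of the main cluster stood at 22.4 CPM, close to the 12.3 CPM of the E125 barcodes of the rule. The difference between stages was not tested.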

How the results depend on the processing

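No paired analysis was possible because each stage has 1 library. Requiring 3 or more gate genes left 68 barcodes. With 50 or more UMIs 555 genes were higher and 1544 lower, and with no filter 818 and 1544. That raised the share of higher genes among all genes past 2-fold from 23.7% to 34.6%. Thinning left 136 higher and 404 lower genes, because fewer genes reached 200 UMIs; of the 25 named higher genes 5 were then measured at E85 and 15 at E125, and all of these were higher. The lower genes numbered 560 against other barcodes without germ cell, endothelial and myeloid ones, and 526 against other barcodes in the same range of UMIs, an alternative chosen after seeing the data. Without the highest doublet scores the main cluster held 81.4% (105 of 129). C1QA changed sign (1.19-fold without those barcode classes). So did the median log2 ratios of 7 of 22 lists in at least 1 alternative: stress (0.29, and −0.09 thinned), RSPO and WNT (−0.4, 0.15 thinned), BMP (−0.14, 0.28 with 3 or more gate genes), steroid and retinoid (0.05, −0.43 thinned and −0.7 in the main cluster alone), hormone receptors (0.04, −0.33 thinned), cholesterol (−0.08, 0.15 without those classes) and Notch (−0.06, 0.13 in the same range of UMIs). Over 21 alternatives, 4 of them added after seeing the data, 735 values of the 35 named genes included 1 with another sign and 5 within 2-fold. Over all measured genes, the median log2 ratio shifted by 0.11 after thinning at E85, and by 0.35 and 0.36 with TMM and DESeq2 factors at E125. Sparse genes and the lack of a second library limit all values.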

Other observations

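Within the 98 pregranulosa barcodes of the main cluster, PTN, the growth factor pleiotrophin, had UMIs in 76 of 98 barcodes with a median of 2 and a maximum of 45, and the 5 barcodes with the most UMIs held 26.6% of them. APOE, apolipoprotein E, was seen in 97 barcodes with a median of 10 and a maximum of 73. These are counts without thinning, and both genes were named after their values had been seen.

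Only 3 genes passed 2-fold in opposite directions at the 2 stages: KRT19, NELL2, which codes for a secreted EGF-domain protein, and ENSCHIG00000023463, which has no symbol. NELL2 had a ratio of 0.111 at E85 and 4.34 at E125, and ENSCHIG00000023463 had 2.07 and 0.473.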
